A study of Mus musculus with 28 samples.

Results

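The arrays described here profiled polysomal RNA of the mouse testis that had been pulled down with an antibody to GRTH or with control IgG. They comprise 4 of the series' 28 arrays, chosen by their titles: 2 hybridised with RNA from the GRTH immunoprecipitation (GRTH IP 1 and 2) and 2 with RNA from the IgG immunoprecipitation (IgG IP 1 and 2). All 4 came from adult male C57BL/6 mice of wild-type genotype, whose testicular polysomes were taken from sucrose gradients, and no group in this comparison lacks GRTH. The IP samples were labelled by a longer, 2-step procedure, against 1 step for every other sample, so their levels were never set against those of other arrays. The free-text description of IgG IP 1 names the GRTH pulldown, whereas its title and its source name give IgG, and the title was followed. Whether arrays of a group stem from different animals is not in the labels, and p-values here reflect only the spread between these arrays, which may be technical. For the same genes, the change in total polysome RNA of Ddx25 knockout mice (KO, 3 arrays) against wild-type mice (WT, 3 arrays) is given as a separate measurement with no array in common; the labels name adult males of the same strain.

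GRTH, the product of Ddx25, is a DEAD-box RNA helicase of the testis whose expression depends on gonadotropin through androgen. It is made in Leydig cells and in meiotic and haploid germ cells, where it is found in messenger ribonucleoprotein particles, takes part in the export of mRNA from the nucleus and associates with polysomes. Male mice without it are sterile, with spermatids that stop before they elongate. In an RNA immunoprecipitation, transcripts carried by the protein should be recovered above the level given by non-specific IgG, and signal common to both pulldowns cannot be credited to the antibody. The comparison therefore asks which polysomal messages were recovered more with the GRTH antibody than with IgG.

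No gene passed the test between the pulldowns when the 4 arrays were fitted alone, without their numbers as a block. Of 9097 genes tested with limma, 0 were higher (percent called 0) and 0 were lower (percent called 0) in GRTH IP at an adjusted p of 0.05 after Benjamini-Hochberg adjustment, and the smallest adjusted p was 0.977. At an unadjusted p under 0.05, 169 genes were higher (1.86%) and 195 were lower (2.14%). The calls depended on single arrays: 12 genes passed without IgG IP 1 and 21 without IgG IP 2. A single value in 2 arrays against 2 cannot go below 0.333 in a two-sided exact permutation test. With the array numbers as a block, 65 genes passed the same threshold (23 higher and 42 lower in GRTH IP). Differences are log2(signal + 16) of GRTH IP minus IgG IP, with standard errors from the fit without that block. Those errors therefore include any spread between the numbers. The median over all genes was -0.02, and 48.9% of genes lay above 0.

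Fold differences of at least 2 were found in both directions. They were counted for 633 genes that were higher in GRTH IP and for 677 that were lower. Both GRTH IP arrays lay above both IgG arrays for 1443 genes (15.9%), and both lay below for 1661 genes (18.3%). If array labels were exchanged at random, no overlap in 1 direction or the other would arise for a share of 0.333. Arrays of the same pulldown also differed, with an SD of the log2 differences of 0.94 for GRTH IP and 1.12 for IgG IP. These counts alone are therefore no evidence of a difference between the pulldowns. A stricter description, used from here on as the gap, takes the distance between the nearest arrays of the groups. A gap of at least 1 on the log2 scale was found for 97 genes that were higher in GRTH IP (1.07%) and for 99 that were lower (1.09%) in the scaling used. With each array centred on its own median the split was 126 higher and 79 lower, and without IgG IP 2 it was 910 higher and 585 lower, so the balance of directions depends on the scaling and on single arrays. With 2 arrays a group this count is a description with no test.

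Arrays of the same number resembled each other as much as arrays of the same pulldown did. Over the 9097 genes, GRTH IP 2 and IgG IP 2 had the closest profiles (Pearson r = 0.884, SD of the log2 differences 0.80), followed by GRTH IP 1 and IgG IP 1 (r = 0.874, SD 0.97). The GRTH IP arrays correlated at r = 0.865 with each other (SD 0.94), and the IgG arrays at 0.823 (SD 1.12). When antibody minus IgG was taken within number 1 and within number 2, the 2 sets of differences correlated at r = 0.231 (rho = 0.241) across genes, which are not independent replicates. Both differences were above 0 for 2514 genes and below 0 for 2764, and they had opposite signs for 3819.

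**Figure D1:**
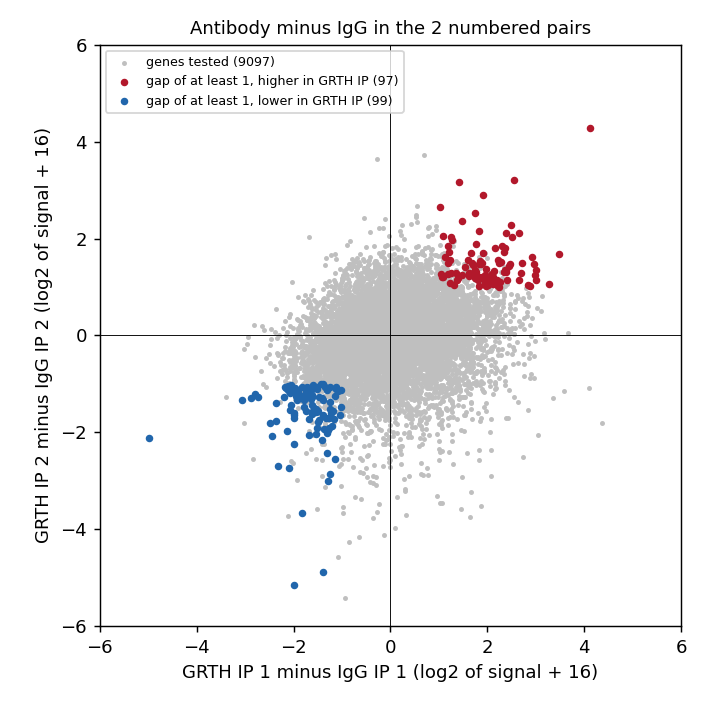
Each point is a gene; the horizontal axis gives GRTH IP 1 minus IgG IP 1 and the vertical axis GRTH IP 2 minus IgG IP 2, both in log2(signal + 16). Red points are the 97 genes at least 1 higher in both GRTH IP arrays than in either IgG array, and blue points the 99 genes lower by that rule; the grey cloud of the 9097 genes tested spreads over all 4 quadrants.

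Exogenous control probe sets separated the pulldowns far more than the testis genes did. The 24 probe sets for the bacterial poly(A) transcripts dap, lys, phe and thr, which are made to be added to RNA before labelling, had median signals of 24390 and 15200 in GRTH IP, against 1073 and 224 in IgG IP. All 24 were higher in both GRTH IP arrays, by a median log2 difference of 5.12 (from 4.19 to 5.53). The 18 hybridization control probe sets (bioB, bioC, bioD and cre), which are added after labelling, differed most by number. Their medians were 4493 and 66710 in GRTH IP, against 2231 and 15820 in IgG IP, and none had groups that did not overlap. Within each number all 18 were nonetheless higher in GRTH IP, and their median log2 difference was 1.44 (from 1.10 to 1.66). The amount of either control added to each sample was not given in the sources used here.

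**Figure D2:**
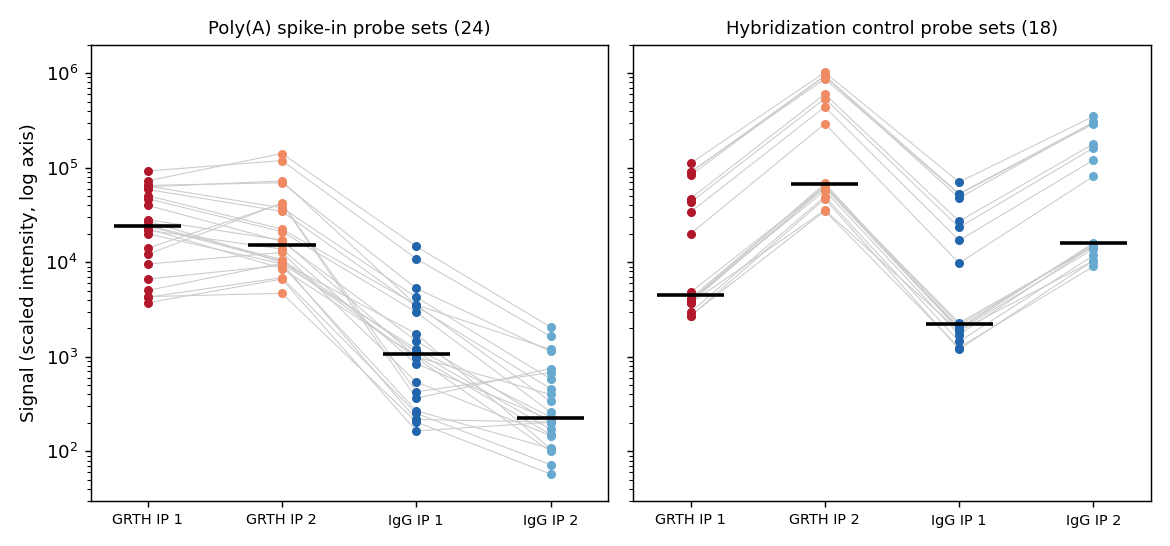
Signal of each poly(A) spike-in probe set (left, 24) and each hybridization control probe set (right, 18) on the 4 arrays, on a log axis; grey lines join a probe set across arrays and black bars are medians. The spike-ins lie above IgG on both GRTH IP arrays, whereas the hybridization controls are high on the arrays numbered 2. Within each number the hybridization controls are also higher in GRTH IP.

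The 4 arrays also differed in the ratios that array software uses to check labelling along a transcript. The ratio of 3' to 5' actin probe sets was 12.8 and 3.81 in GRTH IP, against 10 and 10 in IgG IP, and that of Gapdh was 6.2 and 1.99, against 8.76 and 2.64. Within each pulldown the Gapdh ratio was lower on the array numbered 2. The part of these features and of the spike-ins in the gene differences was not tested.

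Ddx25 mRNA itself was not recovered above IgG. Its signal was 8942 and 13960 in GRTH IP, against 14170 and 15120 in IgG IP. Both antibody arrays lay below both IgG arrays, by a margin of 0.02 on the log2 scale. Means were 11450 (SD 3550, n = 2) and 14640 (SD 677, n = 2), a log2 difference of -0.39 ± 0.59 with a 95% confidence interval from -1.70 to 0.92 (limma, adjusted p = 0.977). The transcript was thus bright in both pulldowns, and the interval leaves room for less than a doubling in GRTH IP. In KO against WT polysome RNA the same probe set changed by -4.35 on the log2 scale (limma adjusted p = 0.00017), which checks the probe set but says nothing about the antibody.

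The widest gaps on the antibody side belonged to Slc25a40, Rapgef2 and Shisa3. Slc25a40, a mitochondrial carrier, had signals of 911 and 767 in GRTH IP, against 142 and 69.4 in IgG IP. Its log2 difference was 2.87 ± 0.61 with a gap of 2.31, the smallest unadjusted p of the comparison (0.000713, limma, adjusted p = 0.977). Rapgef2, an exchange factor for the small GTPase Rap, had 865 and 652 in GRTH IP, against 138 and 147 in IgG IP (2.28 ± 0.58). In both genes the antibody arrays lay well above the IgG arrays; the IgG arrays were close to each other for Rapgef2 and farther apart for Slc25a40. Shisa3, an endoplasmic reticulum protein that dampens Wnt and FGF signalling, had 1344 and 1017, against 244 and 224 in IgG IP (2.25 ± 0.58), and its other probe set differed by 1.45.

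Further genes on this side encode cell cycle, signalling and RNA-processing proteins. Kitl, the ligand of the KIT receptor that Sertoli cells present to germ cells, had 2006 and 2193 in GRTH IP, against 167 and 677 in IgG IP (2.57 ± 0.71). The antibody arrays lay close together while the IgG arrays stood apart, and the other Kitl probe sets gave differences from -0.85 to 0.49. Ccne2, cyclin E2, had 4471 and 4408 in GRTH IP, against 797 and 1566 in IgG IP (1.97 on the log2 scale). Zranb2, a zinc finger splicing factor, had 7730 and 3651, against 982 and 1312 in IgG IP (2.21). These genes were bright in GRTH IP, and their nearest arrays lay more than 1 log2 unit apart. Pcnp, which encodes a nuclear protein, had 9255 and 6814 in GRTH IP, against 1988 and 2319 in IgG IP (1.88), with a difference of 0.67 at its other probe set. Usp45, a deubiquitinase, had 1586 and 1190, against 228 and 410 in IgG IP (2.11).

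Among the 15 widest gaps on this side, 5 carried clone-based, pseudogene or predicted names. The RIKEN gene 1700024J04Rik had 3399 and 4766 in GRTH IP, against 591 and 978 in IgG IP (2.38 ± 0.60). The pseudogene Znf41-ps had 4431 and 5515, against 1290 and 1486 in IgG IP (1.82). Within each pulldown the arrays were closer for Znf41-ps than for 1700024J04Rik. Gm20642, B230219D22Rik and 4930447C04Rik had gaps of 1.59, 1.62 and 1.49, and the other probe sets of 4930447C04Rik differed by -0.44 to 0.08. Zfp292 and Tmem161b completed the 15, with log2 differences of 1.68 and 1.69.

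The widest gap on the IgG side was that of Tubg1, gamma-tubulin, which nucleates microtubules. Its signal was 191 and 9.57 in GRTH IP, against 799 and 884 in IgG IP, a log2 difference of -3.56 ± 0.87 and a gap of -1.98. Rbmxl2, a germ cell RNA-binding protein that controls splicing in meiosis, had 17.4 and 337 in GRTH IP, against 1036 and 1522 in IgG IP (-3.55 ± 0.95). In both genes 1 antibody array was near the floor of the scale, so the size of the difference rests on a dim signal. Susd3, a membrane protein, had 478 and 513 in GRTH IP, against 2742 and 1831 in IgG IP (-2.14 ± 0.59). Ddx49, a DEAD-box helicase like GRTH, had 223 and 163, against 1286 and 737 in IgG IP (-2.26 ± 0.61), and its other probe sets gave -1.89 to -1.03. Hdac6, the tubulin deacetylase, had 140 and 208 in GRTH IP, against 669 and 866 in IgG IP (-2.06). These 3 genes were low on both antibody arrays alike.

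The rest of the 15 encode enzymes, signalling proteins and structural proteins. Lmnb2, a nuclear lamin, had 968 and 870 in GRTH IP, against 5054 and 2991 in IgG IP (-2.06). Gnb2, a G protein beta subunit, had 1047 and 1364, against 4197 and 4309 in IgG IP (-1.82). Cyp11a1, which makes the first cut of cholesterol in steroid synthesis, had 284 and 309 in GRTH IP, against 946 and 1061 in IgG IP (-1.70 ± 0.58). The 4 values of Cyp11a1 fell into tight pairs, but its other probe sets gave -0.83 to 0.11. Aldh2, a mitochondrial aldehyde dehydrogenase, had 252 and 449 in GRTH IP, against 1331 and 3003 in IgG IP (-2.51). Tkt, the transketolase of the pentose phosphate pathway, had 1224 and 1198, against 3660 and 3399 in IgG IP (-1.53), and other probe sets from -0.85 to 0.48. Ppp1ca, a catalytic subunit of protein phosphatase 1, had 796 and 720 in GRTH IP, against 2471 and 2187 in IgG IP (-1.60). Each of these genes was lower on both antibody arrays. Wnt6, Chpf, Cog8 and 1700067K01Rik lay between -2.41 and -1.63.

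**Figure D3:**
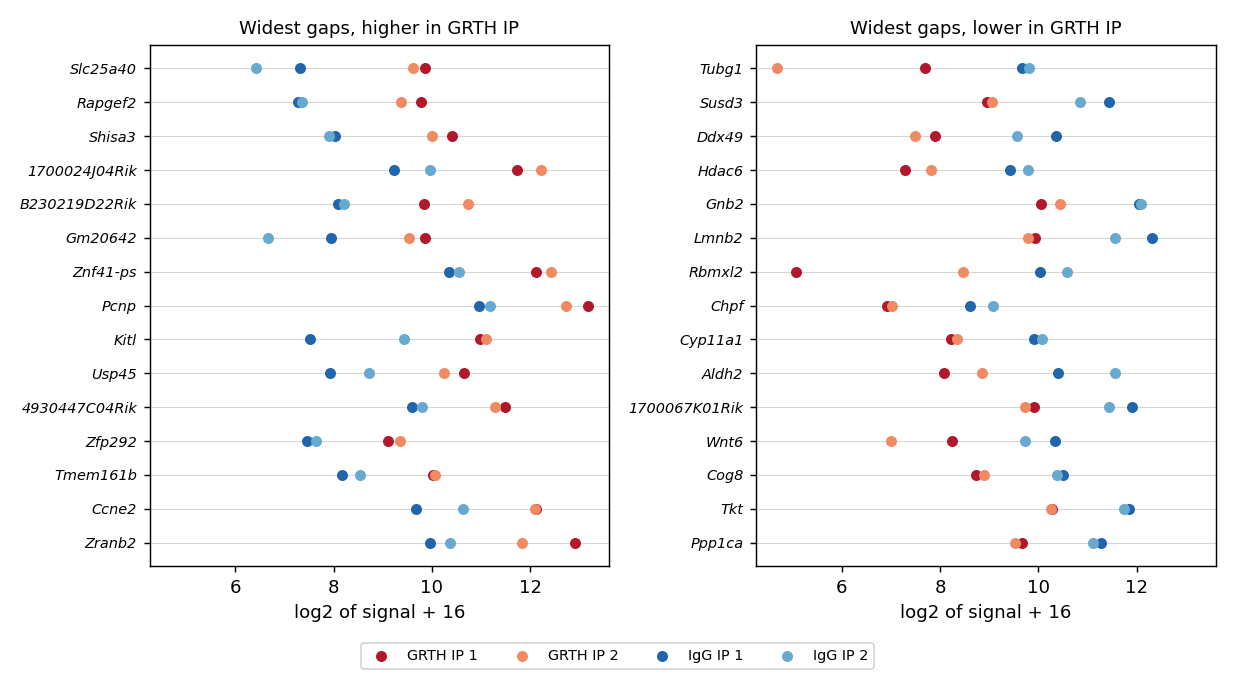
Log2(signal + 16) on each array for the 15 genes with the widest gap on the antibody side (left) and the 15 on the IgG side (right); red and orange points are GRTH IP 1 and 2, dark and light blue points IgG IP 1 and 2. In every row the colours separate by more than 1 unit, and Tubg1 and Rbmxl2 have 1 antibody array each below 6.

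The largest difference of all 9097 genes was that of ND5, the mitochondrially encoded subunit of respiratory complex I, which was named after its values were seen. Its signal was 18750 and 169200 in GRTH IP, against 1068 and 8746 in IgG IP (4.19 ± 1.11, gap 1.10). The antibody arrays were above the IgG arrays, but within each pulldown the array numbered 2 was several-fold brighter than that numbered 1.

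The genes with gaps of at least 1 differed between the sides in some properties of the genes. The span of the gene in RefSeq had a median of 43240.5 bp for 94 of the 97 genes on the antibody side, against 14189 bp for the 99 on the IgG side and 22915 bp for all genes tested. The genes on the antibody side were dimmer in the IgG pulldown, with a median signal of 491, against 1750 for those on the IgG side and 927 for all genes. In GRTH IP the order was reversed, with 1590 on the antibody side, 559 on the IgG side and 879 for all genes. The rule chooses genes by these same signals, so the differences in brightness follow from it. Symbols of zinc finger genes (those that start with Zfp, Znf, Zkscan, Zscan, Zbtb, Zmat, Zc3h or Zranb) made up 8 of the 97 genes (8.25%), against 2 of the 99 (2.02%) and 195 of all 9097 (2.14%). Promoter GC content differed little, with medians of 61%, 56.8% and 59.2% in the same order. These are descriptions of 2 lists chosen by their values, and no test was made.

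Other probe sets of the same gene often disagreed with the one used. Where a gene on the antibody side had other probe sets, all of them were higher in GRTH IP for 39 of 59 genes. On the IgG side all were lower for 31 of 53. Over all genes with several probe sets, all others pointed the same way as the one used for 2305 of 5394. On both sides the probe sets of a gene thus pointed the same way more often than over all genes, and still disagreed for a sizeable minority. The higher share follows in part from choosing genes with large differences on these same arrays, so it lends them no support.

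The transcripts named in earlier work on GRTH are 9 genes of spermatid differentiation, and none passed the test or had a gap of at least 1. Their median difference was -0.13, and 4 of 9 lay above 0. The groups did not overlap for 3 of them, all lower in GRTH IP (of all genes 18.3% were). Protamines and transition proteins replace the histones in elongating spermatids, and their messages are stored for days before they are translated. Prm1 had signals of 79800 and 556700 in GRTH IP, against 55960 and 237700 in IgG IP (0.87 ± 0.95). Prm2 had 68230 and 175100, against 54410 and 209000 in IgG IP (0.04 ± 0.77), and Tnp1 had 61370 and 242200, against 45010 and 164300 (0.50 ± 0.83). For these 3 genes the number of the array mattered more than the antibody, since both arrays numbered 2 were above both arrays numbered 1. Within numbers 1 and 2, GRTH IP minus IgG IP was 0.51 and 1.23 for Prm1, and 0.45 and 0.56 for Tnp1. Prm2 gave 0.33 and -0.26, with no common sign. Tnp2 had 39350 and 44090 in GRTH IP, against 45480 and 60990 in IgG IP (-0.34 ± 0.58).

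The other 5 members of this list differed in sign. Pgk2, the glycolytic phosphoglycerate kinase of late germ cells, had 9886 and 8340 in GRTH IP, against 12090 and 11180 in IgG IP (-0.36 ± 0.58). Akap4, which anchors protein kinase A in the fibrous sheath of the tail, had 9965 and 5404, against 17380 and 12310 in IgG IP (-0.99 ± 0.62), and its other probe sets gave -0.81 and -0.79. Both antibody arrays were below both IgG arrays for these 2 genes. Crem, the transcription factor that switches on spermatid genes, had 3623 and 6265 in GRTH IP, against 5446 and 4990 in IgG IP (-0.13 ± 0.60). Hmgb2, a chromatin protein of late spermatocytes, had 2885 and 5040, against 1068 and 8573 in IgG IP (0.33 ± 0.89). Ace, whose testis form is made in spermatids, had 400 and 1856 in GRTH IP, against 1247 and 3309 in IgG IP (-1.22 ± 0.80). In these 3 genes the groups overlapped. In KO polysome RNA the same 9 genes had a median change of -1.96.

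Markers of round spermatids and of structures built in spermatids leaned to the IgG side. Of 11 round spermatid markers tested, 1 had a difference above 0, 6 had both GRTH IP arrays below both IgG arrays and none the opposite (18.3% and 15.9% of all genes did), and the median was -0.77. That median was -1.26 within number 1 and -0.37 within number 2. Cby2 (a spermatid protein) had 3296 and 4045 in GRTH IP, against 11150 and 8627 in IgG IP (-1.42 ± 0.58, gap -1.09). Among testis-specific serine kinases and their partners, which act in late spermatids, 0 of 7 lay above 0 and the median was -0.98 (-1.34 within number 1 and -0.37 within number 2). Tssk2 had 2255 and 4854, against 7898 and 6908 in IgG IP (-1.15 ± 0.62). Both genes were lower on each antibody array, by amounts that limma did not call.

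Genes of the sperm tail leaned to the IgG side, with 11 of 35 above 0. Those of the acrosome lay on both sides of 0, with 10 of 30 above it. The 35 genes of the fibrous sheath, outer dense fibres and axoneme had a median of -0.47, with 15 members not overlapping on the IgG side, against 18.3% of all genes, and 1 on the antibody side, against 15.9%. The list's median was -0.73 within number 1 and -0.25 within number 2. Tekt4, a tektin filament protein of the axoneme, had 1801 and 1844 in GRTH IP, against 5187 and 3991 in IgG IP (-1.31 ± 0.58). Tekt1, of the same family, had 3832 and 4986, against 10150 and 9997 in IgG IP (-1.20 ± 0.58). Each was low on both antibody arrays, with a gap of at least 1. The 30 acrosome and egg-binding genes had a median of -0.33, with 8 members not overlapping on the IgG side (18.3% of all genes) and 3 on the antibody side (15.9% of all genes). This median was -0.67 within number 1 and 0.09 within number 2. Spam1, the sperm hyaluronidase, was among the 3, with 4389 and 2736 in GRTH IP, against 1959 and 1381 in IgG IP (1.07 ± 0.60).

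Elongating spermatid markers were mixed. The 19 genes had a median of -0.25, with 8 above 0. Of them 6 did not overlap on the IgG side (18.3% of all genes) and 2 on the antibody side (15.9% of all genes). Prm3, an acidic protein related to the protamines, had 39630 and 44140 in GRTH IP, against 14370 and 26370 in IgG IP (1.10 ± 0.61). Spem1, needed for spermatids to shed their cytoplasm, had 995 and 1850, against 4196 and 3777 in IgG IP (-1.54 ± 0.61). These 2 markers of the same stage were thus separated in opposite directions, neither past the test. The 12 genes of spermatid chromatin had a median of 0.22 with 8 above 0, and none had a gap of at least 1.

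Meiotic genes held some of the wider gaps on the antibody side. Of 26 spermatocyte and meiosis genes, 16 lay above 0 and the median was 0.14; 7 did not overlap on the antibody side (15.9% of all genes) and 4 on the IgG side (18.3% of all genes); the share on the IgG side is near that of all genes. A gap of at least 1 was found for 2, both on the antibody side, against 1.07% of all genes. Tex12, a component of the central element of the synaptonemal complex, had 7597 and 15200 in GRTH IP, against 2850 and 1687 in IgG IP (2.28 ± 0.64, gap 1.41). Sycp2, a component of its lateral element, had 24440 and 19090, against 5045 and 8839 in IgG IP (1.69 ± 0.61, gap 1.11). In both genes the pulldowns were well apart. They were narrowly so for Mybl1, the transcription factor of pachytene spermatocytes, which had 1438 and 1009 in GRTH IP, against 229 and 908 in IgG IP (1.36 ± 0.72). Of the 14 spermatogonial markers 5 were bright enough to be tested, with a median of -0.06.

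Germ cell regulators of translation included genes at both ends. The 31 genes had a median of 0.04. Boll, a DAZ-family protein of meiotic cells, had 7896 and 6582 in GRTH IP, against 2038 and 2887 in IgG IP (1.56 ± 0.59), but its other probe sets gave -0.82 to 0.08. Cpeb2, a cytoplasmic polyadenylation element-binding protein, had 7995 and 5048, against 1741 and 2273 in IgG IP (1.67 ± 0.60), with 0.42 to 0.98 at other probe sets. Both separated the pulldowns at the probe set used, and Cpeb2 pointed the same way at its others. On the IgG side were Rbmxl2, given above, and Ybx2, which packages stored mRNAs of germ cells, with 2730 and 6048 in GRTH IP, against 6530 and 11170 in IgG IP (-1.07 ± 0.65). Dazl, another DAZ-family protein, had 5310 and 13360, against 1837 and 8638 in IgG IP (1.08 ± 0.81), with overlapping groups.

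Genes of mRNA decay had the highest list median. Of 29 genes of decapping and deadenylation 20 lay above 0, the median was 0.33, and 8 did not overlap on the antibody side (15.9% of all genes) against 3 on the IgG side (18.3% of all genes). Cnot7, a catalytic subunit of the CCR4-NOT deadenylase, had 11150 and 9751 in GRTH IP, against 4307 and 4387 in IgG IP (1.26 ± 0.58), and 0.66 to 1.02 at other probe sets. Tob1, which recruits that complex, had 5374 and 5950, against 1496 and 2847 in IgG IP (1.45 ± 0.61), and 1.94 at its other probe set. The arrays of each pulldown were close for Cnot7 and the groups separate for both genes. Upf2, a factor of nonsense-mediated decay, had 6678 and 3634 in GRTH IP, against 995 and 2108 in IgG IP (1.75 ± 0.65), but -0.03 at its other probe set.

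Ribosomal protein genes, whose products make up the translation machinery of the polysomes, showed small differences of 1 sign. Of 43 tested, 36 lay above 0 (against 48.9% of all genes), with a median of 0.32 and none with a gap of at least 1. Rpl37a had 52070 and 77110 in GRTH IP, against 31060 and 27160 in IgG IP (1.12 ± 0.59), with -0.84 to 0.87 at other probe sets. Rplp0, of the ribosomal stalk, was on the other side, with 8304 and 12480 in GRTH IP, against 21720 and 16910 in IgG IP (-0.91 ± 0.59). No member passed the test, and 7 did not overlap on the antibody side, a share close to the 15.9% of all genes, against 1 on the IgG side (18.3% of all genes).

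RNA helicases and genes of the piRNA pathway were centred near 0. The 41 DEAD and DEAH box helicases had a median of -0.02, with 20 above 0. Dhx15, which takes apart spliceosomes, had 9756 and 7365 in GRTH IP, against 4200 and 3261 in IgG IP (1.19 ± 0.59), and 0.82 at its other probe set. Ddx4, the vasa homologue of the chromatoid body, had 23120 and 16830, against 13150 and 12060 in IgG IP (0.65 ± 0.58). Both separated the pulldowns, by less than a gap of 1. The 23 genes of the chromatoid body and the piRNA pathway had a median of 0.07. The 14 of microRNA processing had a median of 0.32, which was 0.70 within number 1 and -0.16 within number 2. Dicer1, the microRNA-processing nuclease, had 466 and 36.6 in GRTH IP, against 221 and 560 in IgG IP (-1.21 ± 0.95), with overlapping groups. Medians of nuclear mRNA export (21 genes) and translation factors (36 genes) were 0.03 and -0.03. Outside these groups, 28 genes of ER translocation had a median of 0.00, 23 of the CREM programme -0.13, 16 of apoptosis 0.26 and 7 histone genes -0.09.

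Glycolytic enzymes and cytoskeletal genes leaned to the IgG side. Of 20 genes of glycolysis and germ cell fuel use 2 lay above 0, 11 did not overlap on the IgG side (18.3% of all genes) and 0 on the antibody side (15.9% of all genes), and the median was -0.57. Tpi1, triosephosphate isomerase, had 2497 and 2201 in GRTH IP, against 9676 and 4970 in IgG IP (-1.56 ± 0.61), and -1.44 to -1.20 at other probe sets. Of 21 spermatid actin- and tubulin-related genes 3 lay above 0, 13 did not overlap on the IgG side and 1 on the antibody side, against the same 18.3% and 15.9%, and the median was -0.83 (-1.16 within number 1 and -0.51 within number 2). Actl9, an actin-related protein of spermatids, had 2285 and 3049 in GRTH IP, against 10280 and 6511 in IgG IP (-1.63 ± 0.60). Actb, beta-actin, had 9689 and 12610, against 24480 and 43850 in IgG IP (-1.57 ± 0.61), but 0.04 at its other probe set. The 3 actin control probe sets, which were left out of the genes tested, differed by -1.74 to -1.21. At the probe sets used, both antibody arrays were below both IgG arrays for all 3 genes.

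Protein turnover and energy genes were closer to the middle. The 33 proteasome subunits had a median of -0.41, with 12 not overlapping on the IgG side and 2 on the antibody side, against 18.3% and 15.9% of all genes. Psmd2, a subunit of the regulatory particle, had 5466 and 3918 in GRTH IP, against 10810 and 9644 in IgG IP (-1.14 ± 0.59), but 1.13 at its other probe set. The 33 ubiquitin pathway genes had a median of -0.12 and the 33 chaperones a median of -0.21. The 54 nuclear-encoded respiratory chain genes had a median of 0.04, with 28 above 0. Of them 8 did not overlap on the antibody side (15.9% of all genes) and 6 on the IgG side (18.3% of all genes). The list was thus balanced, though the 3 members with a gap of at least 1 were all on the IgG side (1.09% of all genes). Uqcrc1, of complex III, had 3146 and 4591 in GRTH IP, against 13680 and 9518 in IgG IP (-1.58 ± 0.60). Atp5b, the beta subunit of ATP synthase, had 3716 and 3751, against 9443 and 7877 in IgG IP (-1.20 ± 0.58). Both were low on each antibody array, as was the third of them, Sdhc of complex II (-1.47 ± 0.59).

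**Figure D4:**
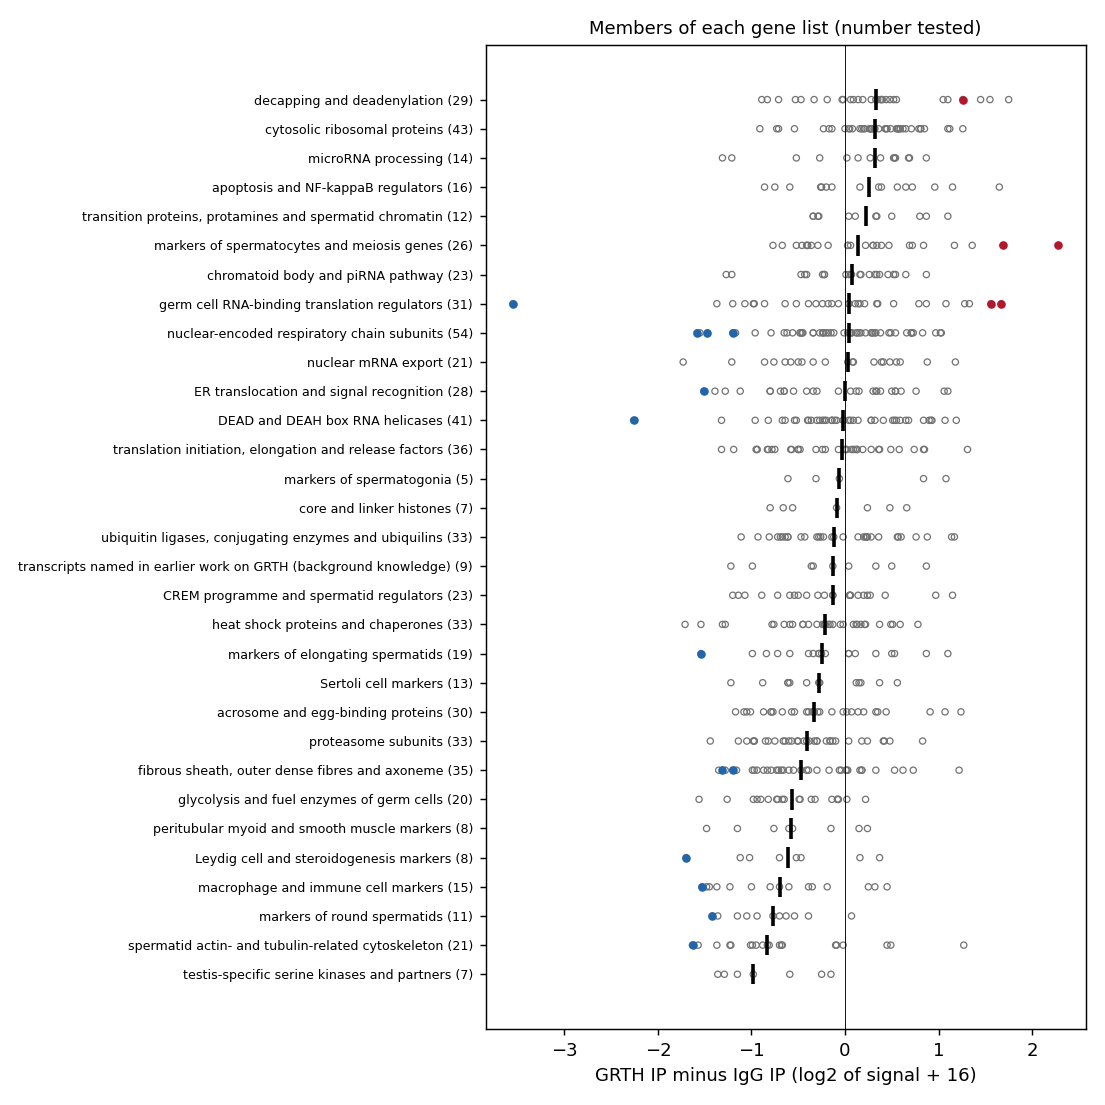
Difference of GRTH IP minus IgG IP in log2(signal + 16) for each tested member (points) of 31 gene lists, ordered by their median (black bars), with the number tested in brackets. Filled points have a gap of at least 1, red on the antibody side and blue on the IgG side; list medians run from -0.98 to 0.33, and members of most lists lie on both sides of 0.

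Markers of somatic testis cells were mostly below 0. Both pulldowns came from testicular polysomes of wild-type mice, so the values measure RNA signal of each pulldown and do not count cells. Macrophage markers had 3 of 15 above 0, and their summed signal was 11413 and 15990 in GRTH IP, against 19611 and 22779 in IgG IP. Peritubular and smooth muscle markers had 2 of 8 above 0, with sums of 6186 and 9570 in GRTH IP, against 11529 and 15010 in IgG IP. Sertoli cell markers had 5 of 13 above 0, with sums of 119618 and 73969, against 142086 and 133506 in IgG IP. Each of these 3 sums was lower on both antibody arrays. For the Sertoli list this rests on 1 bright gene, Clu. It had 41690 and 26460 in GRTH IP, against 46610 and 80570 in IgG IP. Leydig cell markers had 2 of 8 above 0, with sums of 27702 and 23681 in GRTH IP, against 43702 and 25483 in IgG IP, which overlapped. Hsd3b1, a steroid dehydrogenase of Leydig cells, had 2114 and 1798 in GRTH IP, against 5218 and 3472 in IgG IP (-1.12 ± 0.59). Of the markers on the array, 1 of 11 for endothelium, 1 of 5 for blood and 0 of 7 for B cells were bright enough to be tested. The reason for these marker differences, and their part in the differences of other genes, was not tested.

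The antibody difference was then set beside the knockout. In KO against WT polysome RNA, 525 genes were lower (5.77%) and 52 higher (0.572%) of 9097 tested (limma, adjusted p under 0.05); with the replicate number as a block the counts were 1075 (11.8%) and 1173 (12.9%). The free-text descriptions of KO polysome 1 and of WT polysome 1 and 2 name another group than their titles, which were followed. Across the 8230 genes tested in both comparisons, the knockout change and the antibody difference correlated at r = 0.037 (rho = -0.027), given as a description.

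Transcripts lower in the knockout did not stand out on the antibody side. The 523 genes lower in KO that were tested in both comparisons had a median antibody difference of -0.33, against -0.04 for the 7678 genes that were not called in KO. The median was -0.59 within number 1 and -0.09 within number 2. Of the 523, 0 had a gap of at least 1 on the antibody side and 11 on the IgG side (2.1%). Among the uncalled genes these were 76 (0.99%) and 87 (1.13%). With the block, 1064 genes were lower in KO, with a median of -0.25. Of them 2 had a gap on the antibody side (0.188%) and 18 on the IgG side (1.69%). Among the genes not called with the block these were 72 (1.14%) and 56 (0.887%). The 29 genes higher in KO had a median of -0.14 and no gap of at least 1 in either direction. With the block they were 854, with a median of -0.26, and 2 had a gap on the antibody side (0.234%) and 24 on the IgG side (2.81%). More gaps on the IgG side were thus not particular to genes lower in KO. The difference between these classes was not tested.

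**Figure D5:**
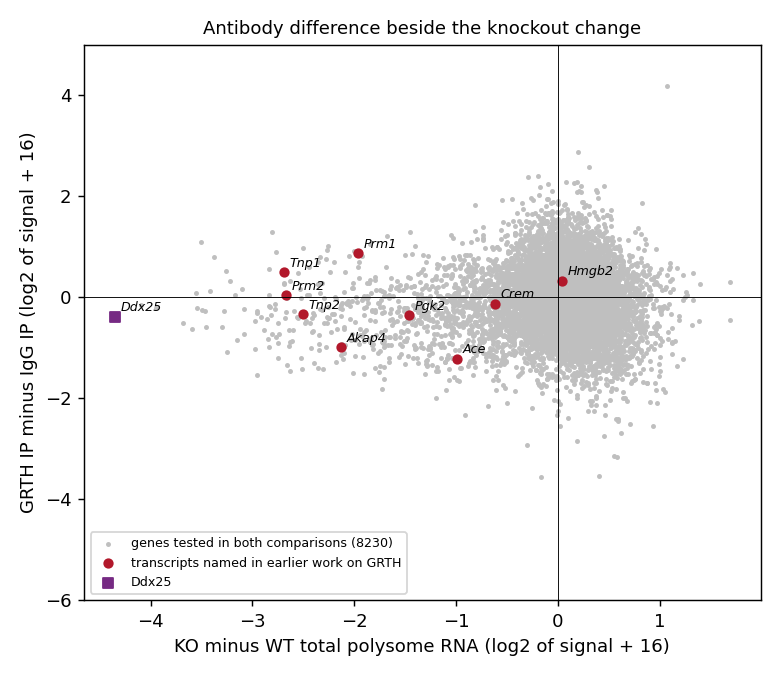
GRTH IP minus IgG IP (vertical) against KO minus WT in total polysome RNA (horizontal), both in log2(signal + 16), for the 8230 genes tested in both. Red points are the 9 transcripts named in earlier work on GRTH and the purple square is Ddx25; the genes far to the left, lower in KO, lie around and somewhat below 0 on the vertical axis.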

How the data were processed

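RNA was measured on one-colour mouse arrays of 45101 probe sets. The deposited values are linear signal intensities that, per the submitters' processing notes, the authors made with GCOS, Affymetrix's array software, with a version and settings not given in the sources used here. The deposited intensities of the 4 IP arrays already had a trimmed mean of 500 (fraction 0.02 trimmed at each end). All 28 arrays were rescaled to it, which changes only the polysome arrays numbered 1 and 2. The deposited trimmed means of the polysome arrays numbered 1, 2 and 3 were 168, 54.5 and 500 in WT. They were 130, 29.8 and 500 in KO. Signals were then transformed to log2(signal + 16), so folds of dim genes are understated.

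Gene names came from the platform's annotation: 34945 probe sets had 1 symbol, 932 several and 9160 none, and 64 controls were left out; the Entrez identifiers of 34741 were found among RefSeq genes. For each of 18193 genes the probe set with the highest mean over 28 arrays was kept; 9010 genes had several. The 9097 genes that reached the median of the mean log2 signal of the 4 IP arrays (a signal of 203) were tested with limma 3.58.1 (lmFit, eBayes) in R 4.3.3 with data.table (version 1.17.8), GRTH IP and IgG IP fitted alone, with two-sided p-values adjusted by Benjamini-Hochberg at 0.05. The script was tested on simulated data. KO against WT polysome RNA was fitted likewise; there arrays of the same number deviated together (r = 0.436, 0.668 and 0.665), so the data, not the labels, pair them, and the fit with the number as a block is given too.

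The comparison, its genes and its gene lists were chosen with earlier results of these data known. Genes were named by a rule: Ddx25, the 15 widest gaps in each direction (fewer than 5 genes having passed), the transcripts of earlier work on GRTH, and 4 members of each other list with the smallest adjusted p, equal values being ordered by unadjusted p after the values were seen; the text names a part of these 151. Precision is limited by the number of arrays. Alternatives were another pseudocount, filter, scale, centring, normalization, probe set choice, weighting, prior and fit, and leaving out each array. Plots used Python 3.11.15 and its packages matplotlib 3.10.9, numpy 2.4.6 and pandas 2.3.3.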

Additional observations from a re-analysis of the deposited data

Results flagged for a closer look

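The poly(A) spike-in probe sets, which enter no gene comparison, differed between the pulldowns by a median of 5.12 on the log2 scale, GRTH IP over IgG IP. All 24 lay higher on both antibody arrays, with differences from 4.19 to 5.53. Whether each sample received the same amount of spike-in was not given in the sources used here, and its part in the gene differences was not tested.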

How the results depend on the processing

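With 2 arrays a group, the count of calls depended on how the spread was estimated. It was 0 in the fit of the 4 IP arrays alone, 65 (23 higher and 42 lower in GRTH IP) with the replicate block, and 2529 (1097 higher, 1432 lower) in a fit over all 28 arrays, which lends the IP arrays the spread of arrays labelled by the shorter procedure. The numbers of the IP arrays are shared but the labels do not pair them. Deviations of same-numbered IP arrays correlated at 0.434, and those of the polysome arrays at 0.436, 0.668 and 0.665. Standard errors and intervals given for the IP arrays come from the fit without the block. Leaving out 1 array at a time gave 0 to 21 calls (0 to 17 higher, 0 to 10 lower): 12 without IgG IP 1, whose description conflicts with its title, 21 without IgG IP 2 and 0 without either antibody array; the lone array is then assumed to vary like the other group. Gaps of at least 1 numbered 317 higher and 286 lower with no filter on low signal, 51 and 57 at or above the 75th percentile, and 326 to 910 and 451 to 585 when 1 array was left out, where the rule has fewer arrays to satisfy. For KO against WT polysomes the block moved the calls to 1173 higher and 1075 lower. Scaling on the spike-ins, an alternative chosen after seeing the data, would move the median of all genes to -5.08, a constant shift that also moves every list below 0.

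Of 151 named genes 134 kept their direction under every alternative other than the spike-in scaling, which was computed for the median alone, and 17 did not. Of the named genes 120 passed the test in the fit over 28 arrays and 18 with the block; 3 passed without IgG IP 1 (Rbmxl2, Slc25a40, Tubg1) and 4 without IgG IP 2 (Kitl, Rbmxl2, Tubg1, Xiap). Prm2 was -0.25 after quantile normalization. With the mean of all probe sets Acta2 was 0.32, Crem 0.33 and Hmgb2 -0.08, and with the probe set brightest on the IP arrays Dnajb1 was 0.30 and H1f2 0.08. When 1 array was left out, the log2 difference ran from -0.53 to 2.27 for Prm1, -0.94 to 1.01 for Prm2, -0.49 to 1.49 for Tnp1, -1.17 to 1.82 for Hmgb2, -0.52 to 0.26 for Crem, -0.04 to 2.19 for Dazl, -2.81 to 0.39 for Dicer1, -0.19 to 1.92 for Ago2, -3.04 to 0.41 for Ago3, -1.27 to 0.64 for Dmrt1, -1.08 to 0.43 for Egfl7, -2.56 to 0.01 for Exosc10, -1.39 to 0.08 for H1f10, -1.20 to 0.08 for H1f2 and -0.44 to 1.77 for H2bc21. Where no cause is given above, it was not tested.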
